A study of Mus musculus with 4 samples.

Results

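The glycolysis and hypoxia response module was a set of 32 genes given by symbol, out of 32285 gene identifiers in the count tables. It held 24 genes of glucose uptake, glycolysis and lactate handling and 8 genes of the response to low oxygen. All 32 had UMIs in the 4 samples, and none of them was used to sort cells into classes. The Aldoa symbol stood on 2 identifiers, of which ENSMUSG00000030695 had 74417 UMIs and ENSMUSG00000114515 had 6, and these were summed. Each sample was a single-cell RNA library of colonic lamina propria cells that had been enriched for the leukocyte protein CD45 with magnetic beads. The mice had colitis from dextran sulfate sodium (DSS), given at 2% in drinking water for 7 days before the tissue was taken on day 8, and tissue from 3 mice was mixed into each sample. The mice were 10 weeks old per the sample labels, and 8 weeks old per the study's text. The study concerned the aryl hydrocarbon receptor (AhR), and its methods name AhR-null and wild-type mice for the single-cell libraries. The sample labels did not give the AhR genotype, so the samples carry only the numbers 1 to 4 here and were not compared as groups. All values below are therefore given for each sample, or as a range or median over samples, and every ratio is between cell classes inside the same sample. Such a range or median can take in both genotypes. Since each sample gave 1 value for each class, no test between classes was made, and intervals cover counting error only.

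Glycolysis splits glucose into pyruvate in a chain of enzyme steps in the cytosol, and lactate dehydrogenase turns pyruvate into lactate when it is not passed to mitochondria. Hypoxia-inducible factor 1 (HIF-1), whose oxygen-controlled subunit is encoded by Hif1a, is broken down when oxygen is plentiful and otherwise induces glucose transporters, glycolytic enzymes and genes such as Vegfa and Bnip3. The colonic mucosa lies beside an oxygen-poor lumen, and neutrophils and inflammatory macrophages are known for their reliance on glycolysis.

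HIF-1 binds DNA at a short core, ACGTG or GCGTG, and the promoters of the members were searched for it because the gene set joins glycolytic enzymes to hypoxia-induced genes. Both cores were searched on both strands (CACGT and CACGC on the other strand) in the 250 bases before each RefSeq gene start, and a CACGTG counts as a match on each strand. RefSeq promoters on GRCm38.p6 were found for 30 of the 32 members. Of their 44 promoters, 35 (79.5%) held a match, against 12679 of all 32851 promoters (38.6%). Some windows of the same gene overlap, as in Pfkm, Aldoa and Eno1, so the same match can count for both. Counted by gene, 27 of the 30 members had a match, but the share of all genes with a match was not computed. A gene with several listed starts has more windows in which to match, so this count cannot be set against the share of promoters. The median number of CG pairs in these windows, which both cores contain, was 14 in the members' promoters and 6 in all promoters, and its part in the difference was not tested. Eno2, Gpi1 and Tpi1 had no match in any listed promoter. A match is a stretch of letters and not a measured binding site, and it does not tell which factor, if any, binds there. The promoter of Pgk1, the gene of phosphoglycerate kinase 1, is printed whole because Pgk1 was among the members that were higher in Arg1 and Mmp12 macrophages, with the matches in capitals (chrX:106186850-106187099, plus strand).
Pgk1: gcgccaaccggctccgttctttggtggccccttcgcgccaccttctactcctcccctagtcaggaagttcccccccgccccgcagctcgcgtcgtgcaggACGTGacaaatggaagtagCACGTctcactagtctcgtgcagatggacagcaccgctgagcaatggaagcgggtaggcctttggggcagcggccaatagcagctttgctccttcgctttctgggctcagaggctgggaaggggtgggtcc

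For the other members on which the results below turn, the 30 bases that hold the most matches are shown in the same way, 5′ to 3′ on the gene's strand. Other matches of the same promoter can lie outside them. They are Slc16a3 (chr11:120949034-120949063, plus strand), Bnip3 (chr7:138909597-138909626, minus strand), Ldha (chr7:46845748-46845777, plus strand), Hk2 (chr6:82774664-82774693, minus strand), Hif1a (chr12:73907720-73907749, plus strand), Pfkfb3 (chr2:11502126-11502155, minus strand, the second listed start) and Egln3 (chr12:54204087-54204116, minus strand).
Slc16a3: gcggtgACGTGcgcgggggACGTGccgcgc
Bnip3: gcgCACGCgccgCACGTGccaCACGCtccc
Ldha: ccagcctaCACGTGggttcccgCACGTccg
Hk2: tagccacggaacaCACGTcccaactctggc
Hif1a: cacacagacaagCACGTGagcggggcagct
Pfkfb3: cacccttctctcCACGTGaaagggggctgg
Egln3: atgtgcatctcagACGTGagatccaggttt
The Bnip3 stretch shows 4 of the 5 matches in its promoter, the Ldha stretch 3 of 5, the Hif1a and Pfkfb3 stretches 2 of 3 each and the Hk2 stretch 1 of 2. Both matches of Slc16a3 and the only match of Egln3 are shown.

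The 4 libraries held 45229 deposited cells, of which 43432 had at least 200 genes and at most 20% mitochondrial UMIs, with a median of 6091 to 7464 UMIs in a cell. A UMI is a tag that marks 1 captured RNA molecule. Cells were put into classes by how many genes of a marker list had a UMI in the cell, which placed 26646 cells. A further 11302 cells had markers of 2 lineages and a median of 13936 to 16704 UMIs by sample, and were set aside as possible doublets, and 5484 met no gate. Not every cell with such markers was set aside. A cell that passed the monocyte-macrophage gate and only just passed the neutrophil gate stayed in the lineage. A dendritic cell could carry lineage markers up to the number that the lineage gate asks for. The part of these cells in the ratios below was not tested. Classes under 50 cells in a sample were not read in that sample. Pairs of libraries shared 23 to 49 cell barcodes, 0.271% to 0.423%. RNA free in the suspension was read from the neutrophil gene S100a8, whose level in follicular-like B cells was 0.222% to 0.444% of its level in neutrophils. Fewer than 50 epithelial cells were placed in every sample, while fibroblasts and endothelial cells, which should lack CD45, were present.

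The module level is the UMIs of the 32 genes per 10000 UMIs of a class. Across all kept cells it was 35.1 in sample 1, 26.6 in sample 2, 41.8 in sample 3 and 40.9 in sample 4, and these values follow the mixture of classes in each library as well as the level in each class. Gapdh, the gene of glyceraldehyde-3-phosphate dehydrogenase, made up 17.8% of the module's UMIs, Hif1a 17.4% and Pkm, the gene of muscle-type pyruvate kinase, 10.8%. The neuronal-type enolase gene Eno2 (0.0473%) and the muscle-type phosphofructokinase gene Pfkm (0.0529%) gave the least. Capture of UMIs differs between genes, so these shares do not rank the genes' transcript numbers.

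By median over the samples read, macrophages that expressed Arg1 and Mmp12 and immature neutrophils stood highest, and B-lineage cells lowest. Immature neutrophils had a median of 53.6 and cells positive for both Ly6c2 and C1q 52.1. Arg1 and Mmp12 macrophages, read in samples 3 and 4, had module levels of 63.6 and 60.1. Immature neutrophils had 57.1, 60.3, 48.7 and 50.03 in samples 1 to 4, and Ly6c2-positive monocytes, which have newly come from blood, had 51.7, 53.9, 47.9 and 49.9. The ranges of immature neutrophils, Ly6c2-positive monocytes, regulatory T cells (41.2 to 51.8) and cells positive for both Ly6c2 and C1q (41.4 to 53.3) overlapped. C1q-positive macrophages, the mature tissue type, had 38.2, 32.8, 42.8 and 39.5. Mature neutrophils lay between 41.0 and 45.7 and overlapped C1q-positive macrophages at their lower end.

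Lymphoid classes other than regulatory and CD4 T cells were lower. CD8 T cells had module levels of 18.8 to 26.0 (median 23.7) and natural killer cells with type 1 innate lymphoid cells 20.3 to 23.6 (median 22.1), ranges that overlapped. Follicular-like B cells had 12.4 to 12.9 over the 4 samples, below every value of every class outside the B lineage. Plasma cells, of the same lineage and read in sample 2 alone, had 10.1. Type 2 innate lymphoid cells (ILC2) had 24.6 to 32.1 over 3 samples.

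**Figure D1:**
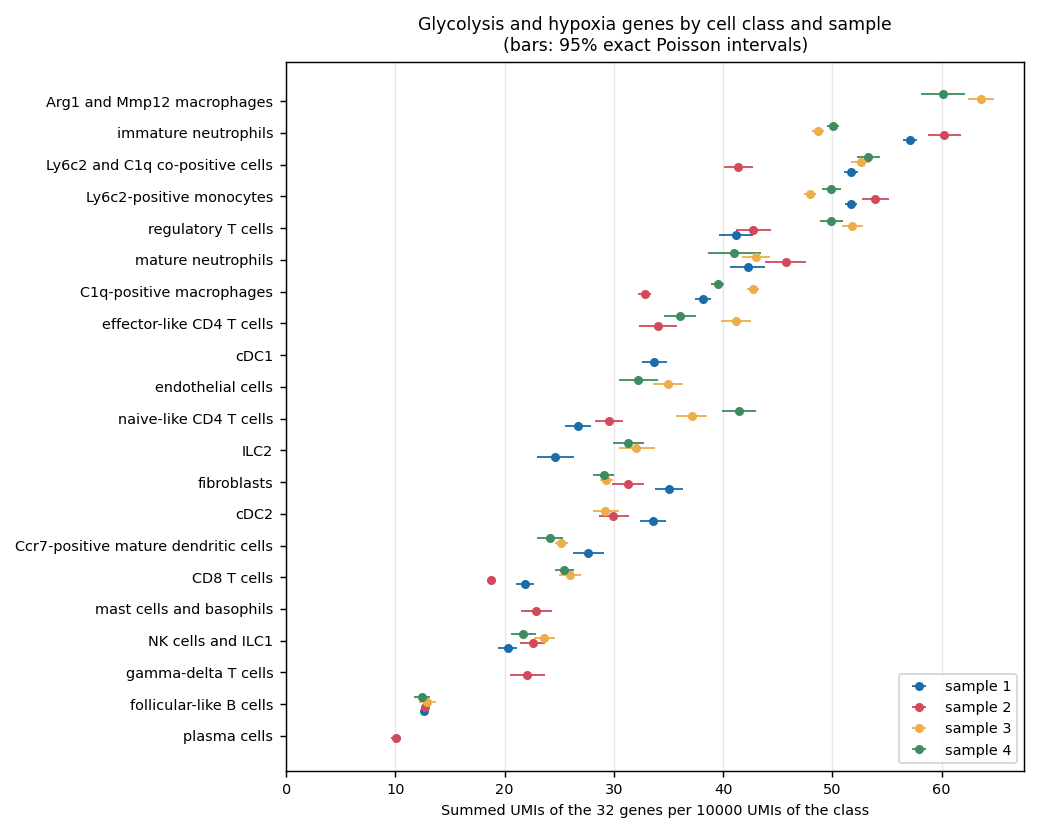
Module level (UMIs of the 32 genes per 10000 UMIs of the class, x axis) by cell class (y axis), with 1 point for each sample in which the class had 50 cells or more. Arg1 and Mmp12 macrophages and immature neutrophils lie at the right, and follicular-like B cells and plasma cells, at 10.1 to 12.9, lie at the left.

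The glycolytic and the hypoxia members did not order the classes alike. By their median over samples, the 24 glycolytic members were highest in Arg1 and Mmp12 macrophages (49.8 and 43.1 per 10000 in samples 3 and 4) and immature neutrophils (37.0 to 49.4). The range of immature neutrophils overlapped those of co-positive cells (32.04 to 38.9), Ly6c2-positive monocytes (33.2 to 39.6) and regulatory T cells (29.8 to 40.2). The glycolytic members were at 9.06 to 10.3 in follicular-like B cells. The 8 hypoxia members reached 13.8 and 17.0 in Arg1 and Mmp12 macrophages, 13.9 to 15.1 in Ly6c2-positive monocytes and 9.67 to 15.4 in ILC2. Other classes overlapped these values, among them co-positive cells (9.34 to 17.4), effector-like CD4 T cells (11.9 to 14.4) and endothelial cells (12.1 to 13.7). ILC2 had a median of 14.3 for the hypoxia members against 10.2 in C1q-positive macrophages, but 31.3 against 38.8 for the whole module. Follicular-like B cells had 2.23 to 3.36 and CD8 T cells 3.20 to 5.05 for the hypoxia members. Across all cells, Hif1a gave most of the UMIs of these 8 genes. It held 17.4% of the module's UMIs, and no other hypoxia member held more than 2.46%. The sum of the hypoxia members thus weighs the Hif1a transcript most and is not a measure of HIF-1 activity.

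The comparisons below set 2 classes of the same sample against each other, gene by gene, by CPM, the UMIs of the gene scaled to a class total of 1000000 UMIs. A gene was compared where both classes together had at least 10 UMIs in every sample read. It is called higher or lower where the CPM ratio passed 2-fold in the same direction in every sample read, and the share of all genes called the same way stands beside the counts of members. A count of 0 was set to 3 UMIs, the upper limit that a count of 0 allows, so that such a ratio is a bound.

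Neutrophils differed from the monocyte-macrophage lineage in which glucose and lactate transporters they expressed more than in the level of the whole module. The module ratio was 1.11 (95% interval 1.10 to 1.13), 1.32 (1.29 to 1.35), 0.948 (0.938 to 0.958) and 1.05 (1.03 to 1.06) in samples 1 to 4, so sample 3 lay on the other side of 1. Of 31 members compared, 2 were called higher (6.45%, against 6.37% of all 11932 genes compared) and 9 lower (29.03%, against 32.3% of all genes), shares near those of all genes. The median log2 ratio of the members was −0.14 and that of all genes −0.89. The neutrophils' UMIs were concentrated in few genes: mitochondrial, ribosomal, immunoglobulin, haemoglobin, S100a8 and S100a9 UMIs were 14.9% to 20.6% of their total and 10.4% to 13.7% in the lineage. With size factors from median ratios in place of totals, the median module ratio was 1.65. Members called lower numbered 5 on that scale (against 19.9% of all genes) and 3 when cells with markers of 2 lineages were given to their nearer class (against 7.44% of all genes).

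The members higher in neutrophils were both membrane transporters. Slc2a3, a high-affinity glucose transporter (chr6:122727809-122801640, minus strand), had 111, 265, 184 and 150 CPM in neutrophils and 2.57, 6.07, 7.41 and 5.78 in the lineage. Slc16a3, the lactate exporter MCT4 (chr11:120948480-120960868, plus strand), had 600, 919, 595 and 531 CPM in neutrophils and 149, 120, 140 and 139 in the lineage. The values did not overlap for either gene, and the ratios were 24.8 to 43.6 for Slc2a3 and 3.83 to 7.65 for Slc16a3. The annotation tags Slc2a3, Hif1a and Pfkfb3 as overlapping another locus, so some of their UMIs could belong to that locus. The level of Slc16a3 in follicular-like B cells was 0.352% to 1.35% of that in neutrophils, and that of Slc2a3 10.0% to 19.7%, against 0.222% to 0.444% for S100a8.

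The partner transporters moved the other way or did not move. Slc16a1, which carries lactate and pyruvate in either direction as MCT1, had 1.94, 1.53, 5.19 and 5.10 CPM in neutrophils and 24.2, 27.4, 81.0 and 48.2 in the lineage, and was called lower. Slc16a3 therefore made up 99.4% to 99.9% of the UMIs of Slc16a1 and Slc16a3 together in immature neutrophils, 60.9% to 76.5% in C1q-positive macrophages and 5.66% to 14.9% in follicular-like B cells. Slc2a3 made up 61.0% to 78.1% of the UMIs of the glucose transporters Slc2a1 and Slc2a3 in immature neutrophils, 3.39% to 10.3% in C1q-positive macrophages and 1.75% to 3.45% in Arg1 and Mmp12 macrophages. In CD8 T cells the share of Slc2a3 was 62.0% to 88.3%. Among glucose and lactate transport genes outside the module, Slc2a6 was called higher in neutrophils (4.51 to 8.51-fold), and Slc2a8, Slc16a7 and Bsg, the chaperone of the lactate transporters, were called lower. In the whole list of other glycolysis genes, 2 of 11 compared were called higher (18.2%, against 6.37% of all genes) and 3 lower (27.3%, against 32.3%).

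The hexokinases, which trap glucose in the cell, differed by isozyme. Hk2 (chr6:82725025-82774454, minus strand) had 16.7, 14.8, 14.6 and 12.4 CPM in neutrophils and 93.2, 97.9, 79.3 and 107 in the lineage, and was called lower. Hk3, the myeloid isozyme, made up 58.1% to 61.8% of the hexokinase UMIs of immature neutrophils and Hk2 4.49% to 8.76%. In C1q-positive macrophages Hk2 made up 48.3% to 58.0%. The hexokinase-like gene Hkdc1, outside the module, was called higher in neutrophils but rested on 112 UMIs there.

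In the enzyme chain after hexokinase, neutrophils had fewer UMIs of triose phosphate isomerase and phosphoglycerate mutase. Tpi1 had 33.4, 31.1, 23.4 and 26.3 CPM in neutrophils and 97.1, 91.2, 117 and 117 in the lineage. Pgam1 had 94.8, 89.7, 62.9 and 78.0 CPM against 211, 192, 186 and 195. Both were called lower, as were the scarce isozymes Aldoc (at most 2.04 CPM in neutrophils against 4.09 to 5.62) and Ldhb. Of 9 members compared for the steps from Gpi1 to Tpi1, 2 were called lower (22.2%). Of 5 compared from Gapdh to Pkm, 1 was (20%). Both shares lie under the 32.3% of all genes, so these calls do not set the enzyme chain apart from other genes. Gpi1, the gene of glucose-6-phosphate isomerase, pointed the other way at 353, 272, 297 and 411 CPM in neutrophils against 174 to 190, a ratio of 1.496 to 2.35 that did not pass 2-fold in every sample. Gapdh was at 1351, 976, 666 and 713 CPM in neutrophils and 963, 765, 740 and 610 in the lineage, with overlapping ranges. Gapdh, Eno1, Pgk1, Ldha, Tpi1, Pgam1 and Pkm have near-identical pseudogene copies, so their UMI assignment is uncertain.

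Of the 8 hypoxia members, 3 were called lower in neutrophils (37.5%, against 32.3% of all genes) and none higher (against 6.37%). A median ratio above 1 was found for 3 of them and for 3206 of all 11932 genes. Hif1a (chr12:73901375-73947530, plus strand) had 796, 924, 1075 and 1127 CPM in neutrophils and 911, 654, 1013 and 984 in the lineage, and its ratio of 0.873 to 1.41 crossed 1. Ndrg1, a stress-responsive gene induced by hypoxia, had 21.3, 20.9, 19.7 and 23.4 CPM against 170, 96.7, 94.5 and 90.6. P4ha1, a subunit of the collagen prolyl hydroxylase, had 18.9, 31.1, 33.1 and 28.1 CPM against 63.4, 75.7, 70.6 and 91.0. These last 2 were called lower, as was Pdk1, the kinase that shuts pyruvate dehydrogenase, at 0.510 to 2.15 CPM against 6.96 to 9.52. Vegfa, which encodes the endothelial growth factor, had 18.4, 93.8, 33.4 and 30.6 CPM in neutrophils against 145, 163, 142 and 236, with no overlap. Its ratio in sample 2, 0.575, did not pass 2-fold. Of 18 other HIF pathway genes compared, none was called higher (against 6.37% of all genes), and Egln1, Egln2, Higd1a and Mif were called lower (22.2%, under the 32.3% of all genes). Of 22 genes of pyruvate entry and the citric acid cycle, 11 were called lower (50%, against 32.3% of all genes), among them the pyruvate dehydrogenase genes Pdha1 and Pdhb and the isocitrate dehydrogenase gene Idh3a, and none higher. Of 7 genes of the pentose phosphate pathway, which feeds the phagocyte oxidase with NADPH, G6pdx was called higher (2.31 to 3.27-fold) and Pgls lower, 14.3% each against 6.37% and 32.3% of all genes.

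**Figure D2:**
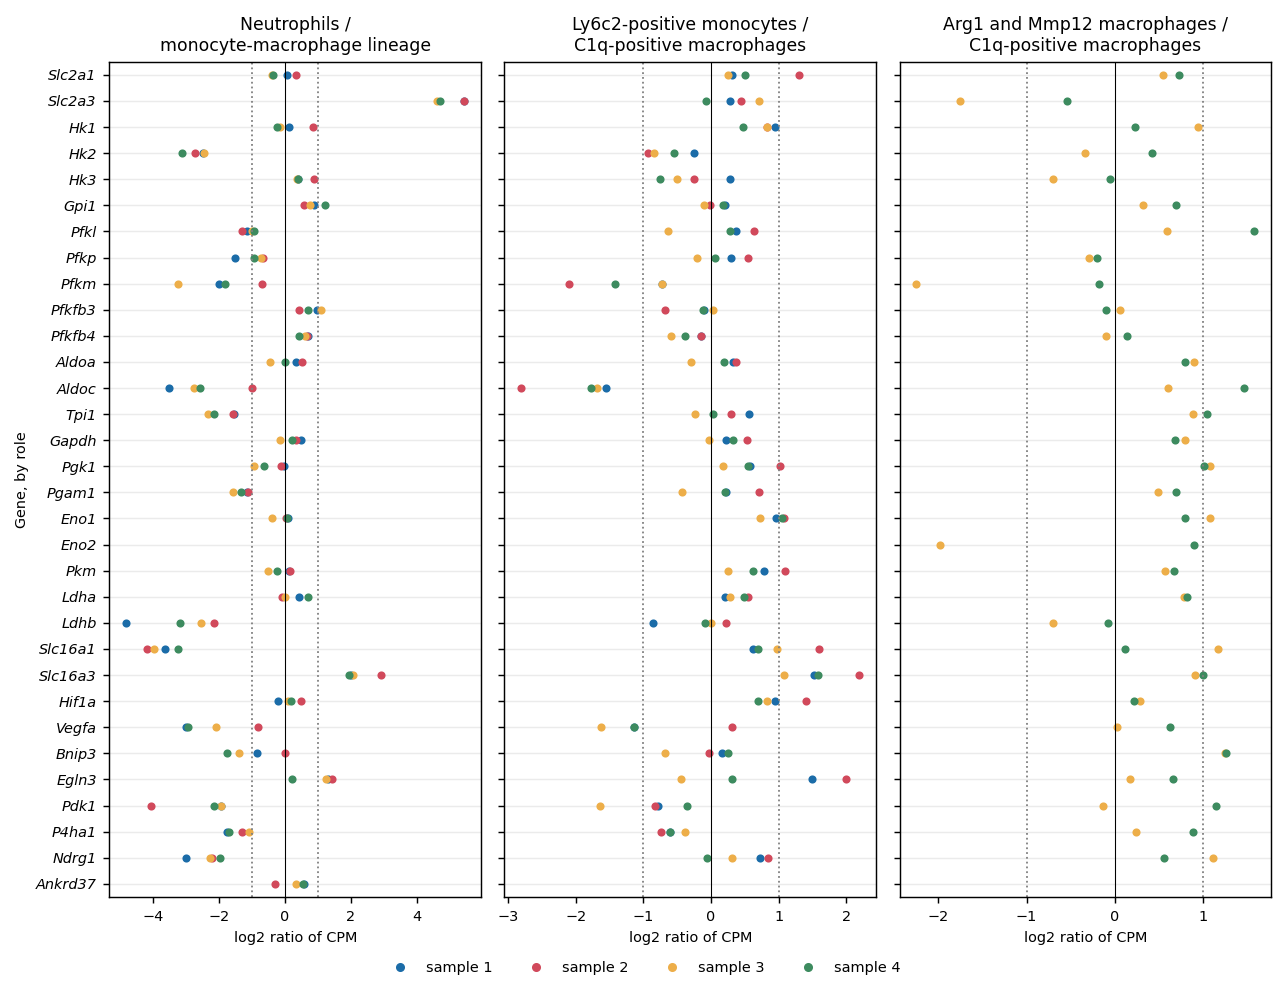
Ratio of CPM (log2 axis) for each member in comparisons of myeloid classes, with 1 point for each sample and dotted lines at 2-fold in each direction. Slc2a3 and Slc16a3 lie above the upper line in all 4 samples for neutrophils against the monocyte-macrophage lineage, at 24.8 to 43.6 and 3.83 to 7.65.

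Within neutrophils, cells rich in granule transcripts had higher module levels than mature cells. The ratio of immature to mature neutrophils was 1.35 (1.30 to 1.41), 1.32 (1.26 to 1.38), 1.13 (1.10 to 1.17) and 1.22 (1.15 to 1.30). Of 25 members compared, Gpi1 was called higher and Bnip3 lower, 4% each, against 1.07% and 3.85% of all genes. Of the 25 members, 12 had a median ratio above 1, against 2044 of all 6240 genes compared. In every sample, 9 members lay above 1 and 9 below 1, against 796 and 2201 of all genes. The higher sum was thus not shared by most members, although all genes leaned further to the lower side. The median log2 ratio was −0.11 for the members and −0.24 for all genes. Gpi1 had 405, 343, 346 and 449 CPM in immature and 139, 143, 169 and 126 in mature neutrophils, a ratio of 2.05 to 3.56. Bnip3, a mitophagy receptor induced by HIF-1, had 6.25, 11.1, 10.1 and 13 CPM in immature and 21.9, 36.1, 24.3 and 48.2 in mature cells, from 69 UMIs in the mature cells. Both genes were without overlap between the 2 stages.

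Ldha, which encodes the lactate dehydrogenase subunit that favours lactate, and Gapdh were also higher in immature cells in each sample. Ldha had 271, 242, 231 and 345 CPM against 106, 143, 141 and 174, and Gapdh 1478, 1146, 734 and 752 CPM against 615, 637, 483 and 411. Neither passed 2-fold in every sample, with ratios of 1.64 to 2.55 and 1.52 to 2.40. Vegfa had 13.5, 77.7, 25.6 and 26.0 CPM in immature and 56.3, 125, 55.7 and 89.0 in mature neutrophils, lower in each sample. The hypoxia members together had a ratio of 0.886 to 1.04. Of 6 pentose phosphate genes compared, G6pdx (2.46 to 3.82-fold) and Tkt (3.19 to 5.52-fold) were called higher in immature cells (33.3%, against 1.07% of all genes). Of 15 other HIF pathway genes compared, Mif was called lower (6.67%, against 3.85%). The 2 stages also differed in depth, since mature cells had median counts of 2170 to 2922 UMIs and immature cells 3810 to 6683. The list of dissociation and heat shock genes was at 869 to 1204 CPM in mature and 291 to 453 in immature cells, and the part of either in these ratios was not tested. Neither Gpi1 nor Bnip3 passed 2-fold in every sample when cells with markers of 2 lineages were given to a class, or when each cell was thinned to 1000 UMIs.

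Ly6c2-positive monocytes had higher module levels than C1q-positive macrophages in every sample. The ratio was 1.36 (1.33 to 1.39), 1.64 (1.60 to 1.69), 1.12 (1.10 to 1.14) and 1.26 (1.23 to 1.29). Of 30 members compared, Slc16a3 was called higher (3.33%, against 2.10% of all genes) and Aldoc lower (3.33%, against 5.75%). The median log2 ratio was 0.23 for the members and −0.20 for all genes. Slc16a3 had 172, 210, 160 and 211 CPM in monocytes and 59.8, 45.9, 75.7 and 70.8 in macrophages, without overlap. Aldoc rested on 31 UMIs in monocytes and 90 in macrophages.

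Hif1a and Pkm were higher in monocytes without passing 2-fold in every sample. Hif1a had 1041, 1034, 1231 and 1182 CPM in monocytes and 543, 389, 693 and 732 in C1q-positive macrophages, a ratio of 1.62 to 2.65. Pkm had 731, 831, 739 and 650 CPM against 427, 388, 619 and 425. Eno1, the main enolase gene, had 99.2, 126, 77.2 and 80.9 CPM against 50.9, 60.01, 46.9 and 39.2. None of these 3 overlapped between the classes, and Vegfa did, at 89.2, 178, 65.4 and 122 CPM against 196, 144, 202 and 268. Of 9 other glycolysis genes compared, Slc2a6 was called higher in monocytes (3.47 to 7.73-fold), 11.1% against 2.10% of all genes. Slc2a8 and Slc16a7 were called lower (22.2%, against 5.75%). RNA of the neutrophil marker list was at 2054 to 7943 CPM in monocytes and 1084 to 2091 in macrophages, and the dissociation and heat shock list at 862 to 1042 CPM in monocytes and 1500 to 2681 in macrophages. The part of either in these ratios was not tested.

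Arg1 and Mmp12 macrophages had higher levels of most members than C1q-positive macrophages in both samples read. Their module ratios were 1.49 (1.45 to 1.52) in sample 3 and 1.52 (1.47 to 1.58) in sample 4, from 157 and 60 cells. The class took every cell of the lineage with UMIs of both Arg1 and Mmp12, whatever its Ly6c2 and C1q genes. C1q-positive macrophages had UMIs of C1qa, C1qb and C1qc and none of Ly6c2. The Arg1 and Mmp12 class can therefore hold Ly6c2-positive cells, whose part in these ratios was not tested. Of 31 members compared, 21 had a ratio above 1 in both samples and 5 below 1 in both. Of all 10470 genes compared, 2909 and 3411 did. Pgk1 and Bnip3 were called higher (6.45%, against 1.05% of all genes) and none lower (0%, against 1.83%). The median log2 ratio was 0.59 for the members and −0.03 for all genes. The dissociation and heat shock list was at 985 and 1248 CPM in Arg1 and Mmp12 macrophages against 1546 and 2256, and the neutrophil list at 2972 and 2316 CPM against 2091 and 1552, and the part of either was not tested.

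Bnip3 had 67.9 and 88.1 CPM in Arg1 and Mmp12 macrophages and 28.5 and 36.8 in C1q-positive macrophages. Pgk1 had 593 and 489 CPM against 280 and 243, ratios of 2.12 and 2.01 that lie close to the 2-fold line and lost the call under 7 of the alternatives tried. Other enzymes of the chain were higher in both samples without passing 2-fold in both. Aldoa, the aldolase of most tissues, had 425 and 354 CPM against 228 and 204, and Tpi1 196 and 207 CPM against 106 and 100. Ldha had 281 and 275 CPM against 163 and 156. For Vegfa the samples differed more, with 205 and 415 CPM in Arg1 and Mmp12 macrophages against 202 and 268 in C1q-positive macrophages. Outside the module, Slc16a7 was called lower, 1 of 9 other glycolysis genes compared (11.1%, against 1.83% of all genes). Over the classes read in at least 2 samples, Arg1 and Mmp12 macrophages had the highest median of 11 members (Slc2a1, Aldoa, Aldoc, Tpi1, Gapdh, Pgk1, Pgam1, Pkm, Vegfa, Bnip3 and P4ha1), each from 2 samples. Medians of other classes can include samples 1 and 2. For Slc2a1, Gapdh, Pkm, Vegfa and P4ha1 the range overlapped that of the class with the next highest median. Gapdh, Vegfa and P4ha1 were highest in only 1 of the samples.

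**Figure D3:**
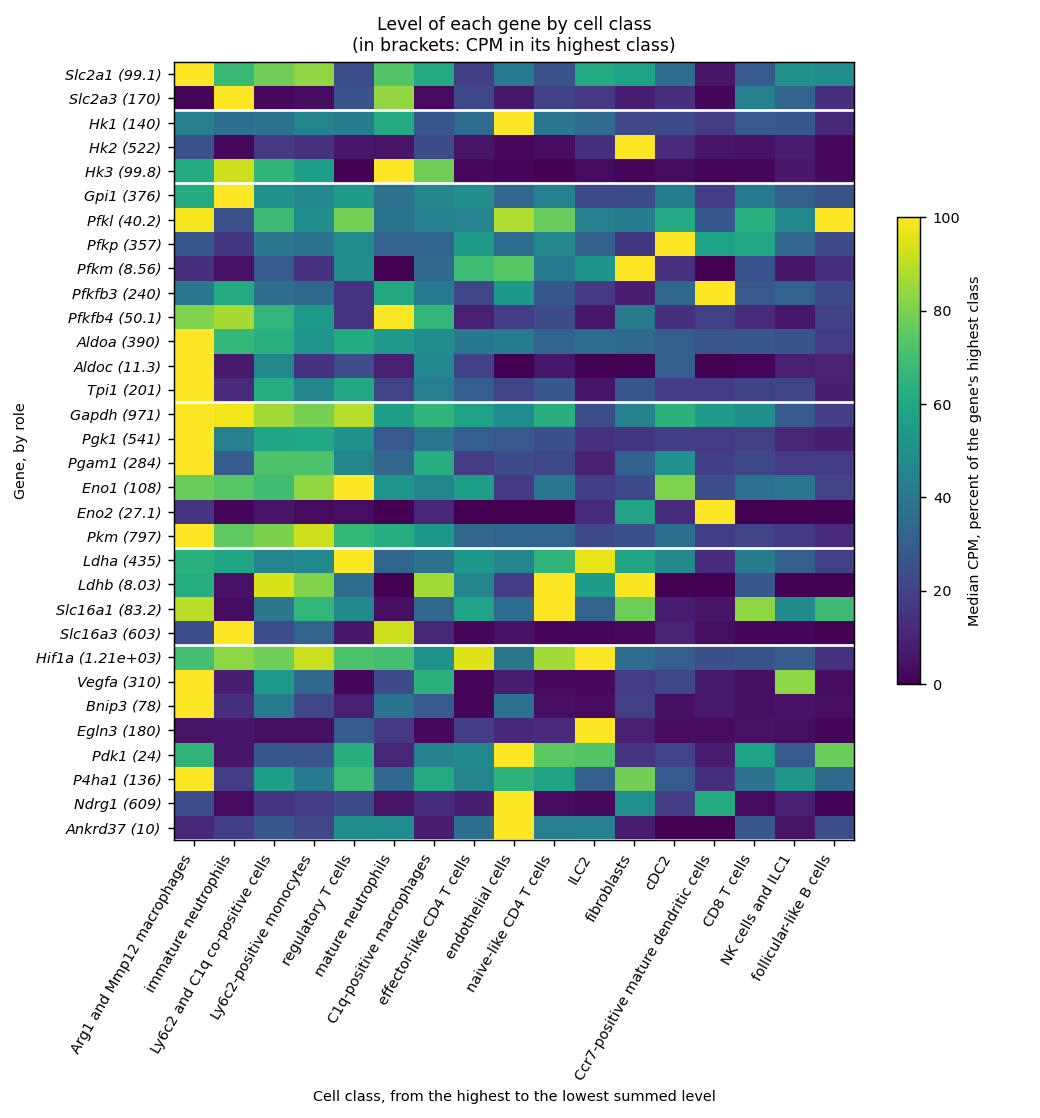
Level of each member (y axis, by role) in the classes read in at least 2 samples (x axis), as the median CPM over samples in percent of the gene's highest class, whose CPM stands in brackets. Hk2 in fibroblasts (median 522 CPM) and Egln3 in ILC2 (median 180 CPM) stand alone in their lines. Arg1 and Mmp12 macrophages, in the left column, are the highest class by median for 11 genes, some with ranges that overlap the next class.

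Ccr7-positive mature dendritic cells, which migrate to lymph nodes, were compared with type 2 conventional dendritic cells (cDC2) in samples 1 and 3. The module ratio was 0.823 (0.773 to 0.877) and 0.862 (0.822 to 0.903). Of 22 members compared, 5 were called lower (22.7%, against 9.78% of all genes) and Pfkfb3 higher (4.55%, against 6.69%). By role, 1 of 2 glucose transporters, 2 of 5 members from Gapdh to Pkm and 2 of 2 members of lactate handling compared were called lower. None of 2 hexokinases or of 7 members from Gpi1 to Tpi1 was. Ldha had 54.8 and 46.7 CPM in mature dendritic cells and 292 and 160 in cDC2, and Slc16a3 22.7 and 18.2 CPM against 60.2 and 81.3. Pgam1 had 52.9 and 46.3 CPM against 162 and 108, Eno1 35.9 and 20.5 against 100 and 50.5, and Slc2a3 0 and 3.41 against 16.7 and 23.4. For Slc2a3 the count was 9 UMIs in mature dendritic cells.

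Pfkfb3 encodes the enzyme that makes the main activator of phosphofructokinase, and it was at 267 and 240 CPM in mature dendritic cells against 82.6 and 86.3 in cDC2. The summed UMIs of the hypoxia members had ratios of 1.14 and 1.19, on the other side of 1 from the whole module. Of the 4 hypoxia members compared singly, Ndrg1 was the only 1 with a median ratio above 1, as were 3483 of all 7936 genes. Their median log2 ratio was −0.50, so the direction of the sum is not that of most of these members. Ndrg1 had 299 and 599 CPM in mature dendritic cells against 110 and 304 in cDC2. Of 15 HIF pathway genes outside the module, Mxi1 and Ddit4 were called higher (13.3%, against 6.69% of all genes) and Fam162a lower (6.67%, against 9.78%). Also called lower were the lactate transporter relative Slc16a6, 1 of 3 other glycolysis genes compared (33.3%), and Taldo1, 1 of 7 pentose phosphate genes (14.3%). Of 20 citric acid cycle genes, Idh3a, Fh1 and Mdh2 were called lower (15%, against 9.78% of all genes). Sample 1 had 50 mature dendritic cells and 66 cDC2, among the smallest classes read. None of the members was called lower when cells with markers of 2 lineages were given to a class, against 1.71% of all genes.

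Plasma cells and follicular-like B cells could be compared in sample 2, where the direction of the module depended on the scale. On total UMIs the ratio was 0.794 (0.755 to 0.834), with 2 of 30 members called higher (6.67%, against 10.3% of all genes) and 14 lower (46.7%, against 49.7%). The mitochondrial, ribosomal, immunoglobulin, haemoglobin, S100a8 and S100a9 UMIs took 59.8% of the plasma cells' total and 18.3% of the B cells'. With those UMIs left out of the total, the ratio was 1.61. Hif1a had 32.9 CPM in plasma cells and 149 in follicular-like B cells. Outside the module, Bpgm and Bsg of 10 other glycolysis genes compared were called higher (20%, against 10.3% of all genes). So were Mxi1 and Ddit4 of 17 other HIF pathway genes (11.8%) and Pdk2 of 22 citric acid cycle genes (4.55%). In these lists, in that order, 40%, 41.2% and 40.9% were called lower, under the 49.7% of all genes. Ndrg1 had 28.2 CPM against 5.26 and was called higher on all 3 scales tried. It lost the call when cells with markers of 2 lineages were given to a class. In that setting 0 of 27 members were called higher, against 5.49% of all genes.

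Effector-like CD4 T cells without Lef1 and Lef1-positive CD4 T cells did not differ in a stable direction. Their module ratio was 1.15 (1.08 to 1.23) in sample 2, 1.11 (1.05 to 1.17) in sample 3 and 0.869 (0.823 to 0.918) in sample 4. None of 24 members was called in either direction (0%, against 0.135% and 0.217% of all genes). The Lef1-positive cells were gated as naive-like, but their proliferation genes stood at 313 to 563 CPM against 190 to 395 in the effector-like cells, which goes against that name. They also had the highest median of Slc16a1, at 64.4, 86.3, 90.3 and 80.0 CPM, within the range of Arg1 and Mmp12 macrophages (39.6 to 109.6 CPM).

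**Figure D4:**
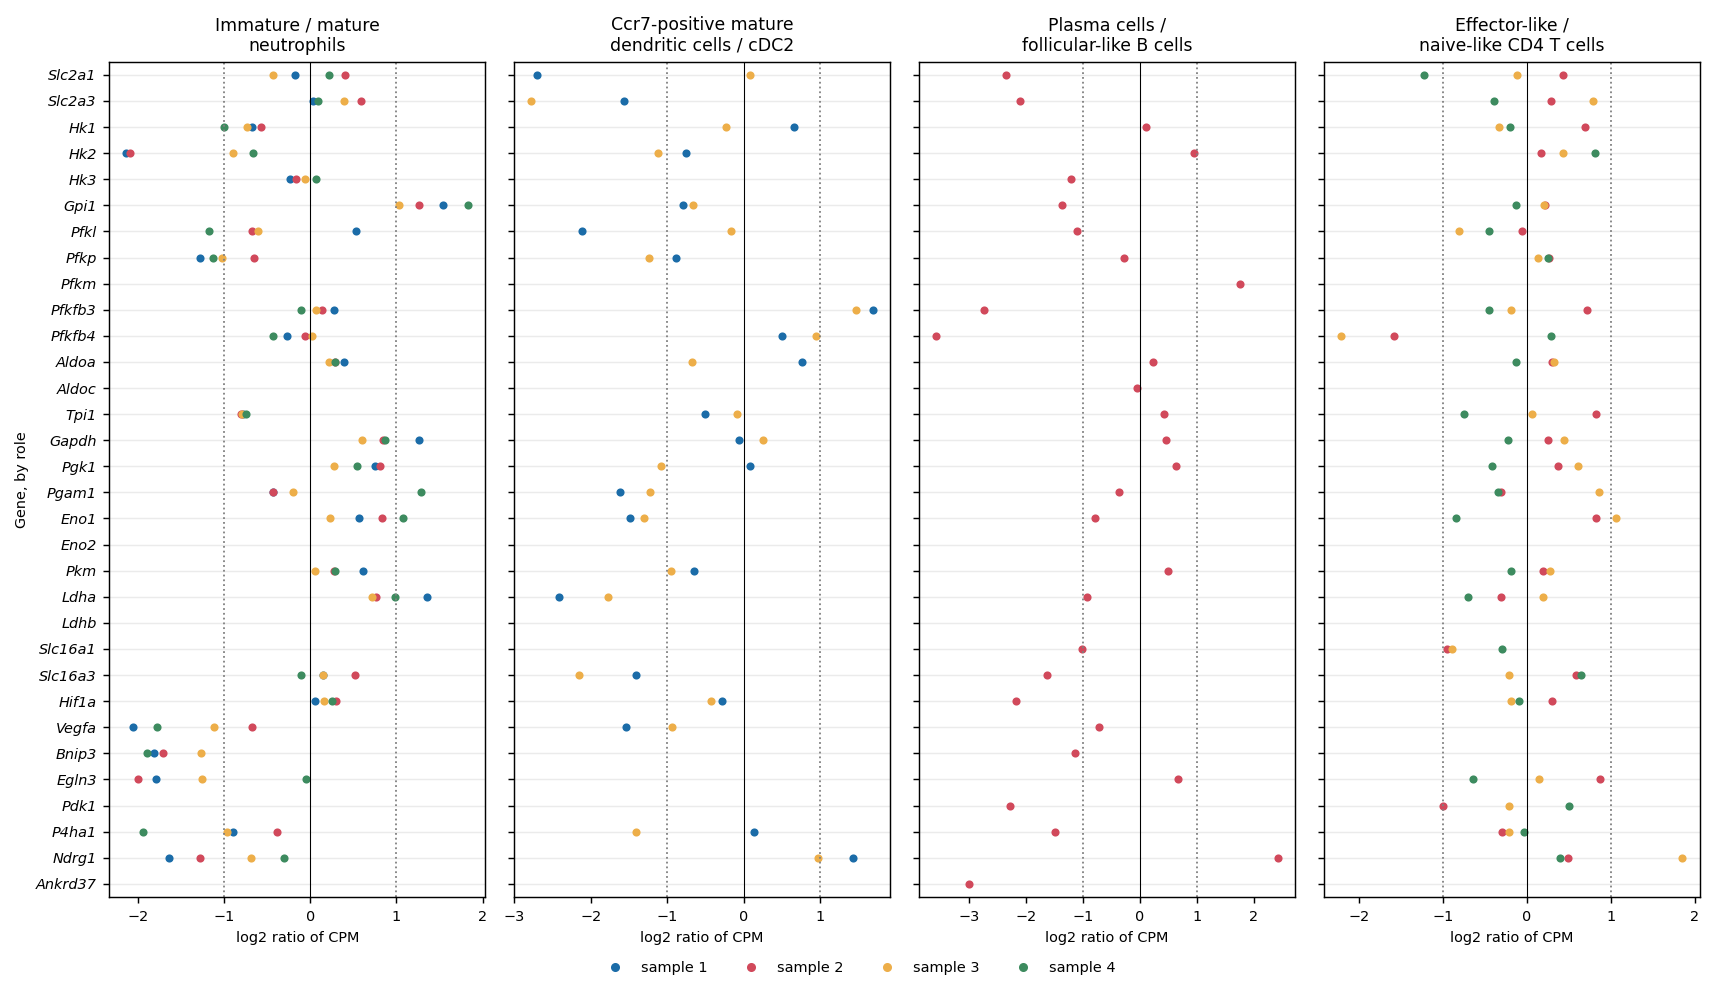
Ratio of CPM (log2 axis) for each member in the comparisons of neutrophil stages, dendritic cells, B-lineage cells and CD4 T cells (those with Lef1 are named naive-like), with 1 point for each sample read and dotted lines at 2-fold. Ldha and Slc16a3 lie below the lower line for mature dendritic cells against cDC2, and no member passes either line in all 3 samples for the CD4 T cells.

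Several members were high in a class outside these comparisons. Hk2 had 447 to 623 CPM in fibroblasts (456, 447, 588 and 623), where it made up 92.9% to 95.3% of the hexokinase UMIs. The next class, Arg1 and Mmp12 macrophages, had 89.3 and 169 CPM, so the ranges did not overlap. Fibroblasts also had the highest level of the dissociation and heat shock list, 4541 to 7153 CPM, whose part in the Hk2 level was not tested. The other hexokinases peaked elsewhere. Hk1, the isozyme of most tissues, was at 159 and 121 CPM in endothelial cells, and Hk3 at 150, 106, 93.1 and 74.1 CPM in mature neutrophils but at 0 to 1.12 in regulatory T cells.

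Egln3, a prolyl hydroxylase that marks HIF-1 for breakdown and is itself induced by HIF-1 (chr12:54178981-54203860, minus strand), was highest in ILC2. It had 218, 135 and 180 CPM in samples 1, 3 and 4. Regulatory T cells followed at 51.7, 37.0, 53.4 and 53.4 CPM, without overlap, and follicular-like B cells had a median of 3.20. ILC2 also had a high Hif1a (640, 1208 and 1280 CPM) and Ldha (419, 484 and 390 CPM) but a low Vegfa (8.61, 2.21 and 6.36 CPM) and Bnip3 (2.87, 2.21 and 0 CPM), so these HIF-1 targets did not stand together in that class. The dissociation and heat shock list was at 3071 to 5275 CPM in ILC2, and its part was not tested.

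Vegfa (chr17:46016993-46032369, minus strand) was split among lymphocytes. Natural killer cells with type 1 innate lymphoid cells had 265, 251, 244 and 281 CPM, and CD8 T cells 5.53, 6.01, 19.2 and 16.4. The level of the natural killer class overlapped that of C1q-positive macrophages, 144 to 268 CPM. Ndrg1 was highest in endothelial cells (574 and 643 CPM), Ccr7-positive mature dendritic cells (299, 599 and 375 CPM in samples 1, 3 and 4) and fibroblasts (311, 265, 302 and 333 CPM), and was at 5.25 to 10.2 CPM in follicular-like B cells. Hif1a, whose protein is controlled mainly by its breakdown, was at 149 to 210 CPM in follicular-like B cells and at 1014 to 1230 in effector-like CD4 T cells.

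The phosphofructokinase genes, which set the committed step, also divided the classes. Pfkp had 385, 297 and 357 CPM in cDC2 and made up 92.0% to 96.3% of their phosphofructokinase UMIs, against 64.0% to 70.7% in follicular-like B cells. Pfkl, the liver-type isozyme, had its highest median in follicular-like B cells at 40.2 CPM, one of few members not low there, with a range that overlapped Arg1 and Mmp12 macrophages (34.2 to 45.0 CPM). Pdk1 was another, at 18.8, 17.8, 18.4 and 35.9 CPM in follicular-like B cells against 0 to 2.69 in immature neutrophils. Of the regulators, Pfkfb4 made up 34.7% to 71.4% of the UMIs of Pfkfb3 and Pfkfb4 in fibroblasts and 3.42% to 3.81% in Ccr7-positive mature dendritic cells. Ldha was highest in regulatory T cells (390, 397, 575 and 472 CPM) and overlapped ILC2. Ldhb, whose subunit favours pyruvate, had its highest median in Lef1-positive CD4 T cells at 8.03 CPM, close to the 7.99 CPM of fibroblasts, and the ranges overlapped. Ankrd37, a hypoxia-induced ankyrin repeat gene, had a median at or under 10.0 CPM in each class read in at least 2 samples, too few UMIs to order the classes.

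**Figure D5:**
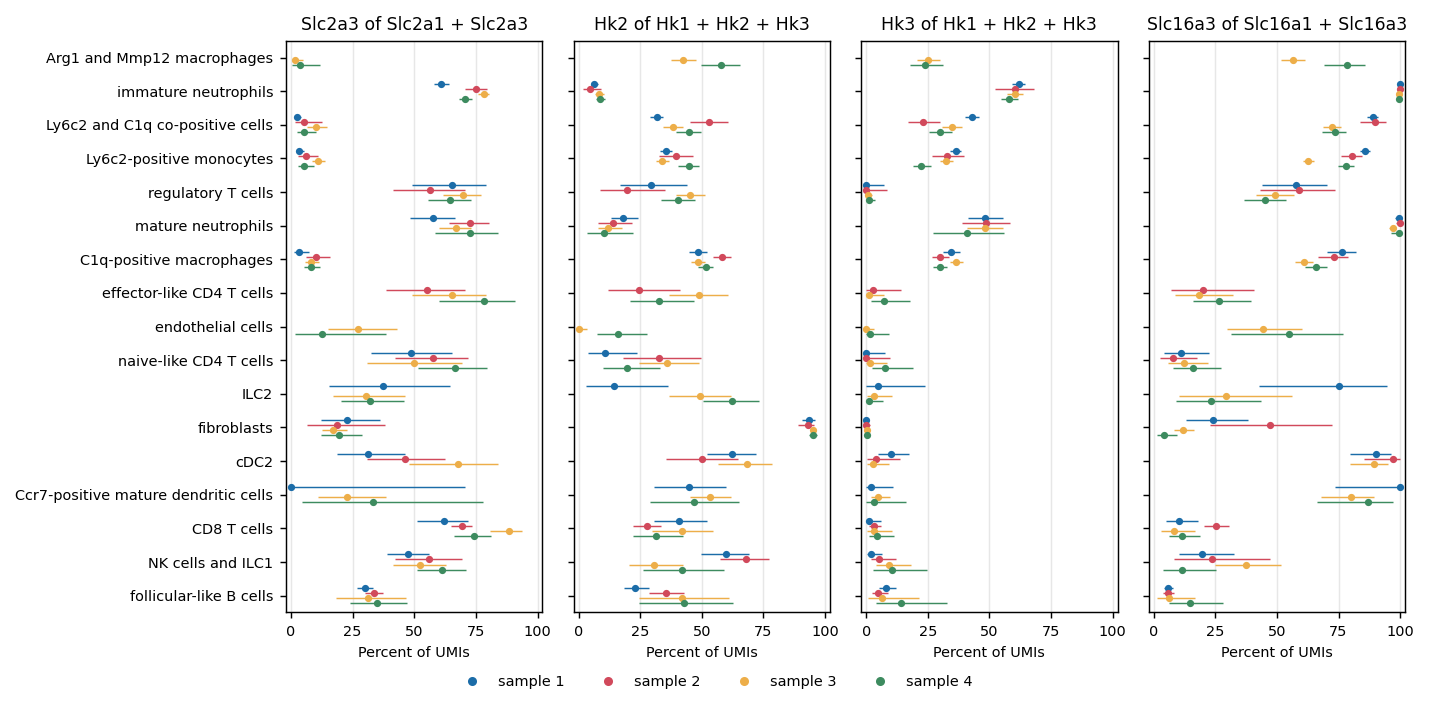
Share (percent of UMIs, x axis) taken by 1 gene within its pair or trio of related genes, by cell class (y axis), with 1 point for each sample and its 95% binomial interval, which covers counting error. Slc16a3 takes 99.4% to 99.9% of the lactate transporter pair in immature neutrophils and 5.66% to 14.9% in follicular-like B cells, and Hk2 takes 92.9% to 95.3% of the hexokinases in fibroblasts.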

How the data were processed

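For each of the 4 libraries, a matrix of UMI counts by gene and cell was deposited, with no normalization applied. The matrix header names Cell Ranger 7.0.1, while the submitters' processing notes name Cell Ranger 5.0.0, STAR, Seurat and mm10. Library totals were 113806334, 135516016, 101579112 and 72509408 UMIs. The labels give no AhR genotype, so all 4 samples stayed unassigned, and names of files were not used. Cells with at least 200 genes and at most 20% mitochondrial UMIs were kept and gated by markers with a UMI (neutrophils 7 of 11, monocyte-macrophage lineage 6 of 14, B cells 4 of 7, T cells 4 of 6). Doublets were treated by setting aside cells with markers of 2 lineages, and no doublet caller was run. Exceptions included lineage cells only just past the neutrophil gate and dendritic cells with some lineage markers. UMIs were summed by class and sample, and classes were compared by CPM ratio within a sample, with exact Poisson, conditional or binomial 95% intervals that cover counting error only. Cells do not replicate a condition, and no p-value is given. All 32 members are described. Genes of 4 further lists (other glycolysis, other HIF pathway, pentose phosphate, citric acid cycle) were counted, and only some of those past 2-fold in every sample read are named. The members and lists were chosen with earlier results of these data known, and the gate thresholds were set after marker counts, class sizes and module levels had been seen. Of 8 comparisons planned, that of germinal-centre-like with follicular-like B cells could not be read, as at most 49 germinal-centre-like cells were found in a sample. Gene coordinates came from GENCODE M21 on GRCm38, which holds 32235 of the 32285 identifiers, and promoters from RefSeq. Promoters of Slc2a3 and Ndrg1 were not used here. The calls were run on simulated data with planted changes in well-counted genes and counting error only. Such data cannot give the error rate of the calls in the real samples. Python 3.11.15, numpy 2.4.6, scipy 1.17.1 and pandas 2.3.3 were used. Alternatives covered scaling, filters, gates, thinning, the fold and each sample left out, and a minimum of 10 expected UMIs in each class, class levels and single members under each alternative were added after seeing the data.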

Additional observations from a re-analysis of the deposited data

How the results depend on the processing

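Depth limited scarce members such as Pfkm, Eno2 and Ankrd37, and the classes of 50 to 70 cells limited the dendritic cell and Arg1 and Mmp12 comparisons. The cause of the changes below was not tested, except where they follow from the construction of the alternative (another fold, other genes summed or another total). Each ratio was taken between classes of the same sample, so the comparisons are paired by sample as reported and no unpaired fit was made. Of the module ratios, 80 of the recomputed values stayed within the span of the samples' intervals, 13 left it and 3 turned a ratio whose intervals all lay on 1 side of 1. The values with a sample left out are among the 80 and could not leave that span by construction, so they do not test it. The ratios that turned were plasma cells against follicular-like B cells (0.794 as reported), at 1.61 without the UMIs of mitochondrial, ribosomal, immunoglobulin, haemoglobin, S100a8 and S100a9 genes and 1.52 with median-of-ratios size factors, and mature dendritic cells against cDC2 at 1.16 for the hypoxia members alone. Of the comparisons whose samples lay on both sides of 1, neutrophils against the lineage gave medians of 0.965 with cells of 2 lineages given to a class and 0.858 for the hypoxia members, and effector-like CD4 T cells 0.989 without sample 2 and 0.935 for the hypoxia members.

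Percentages below are the shares of all genes called by the same setting. Median-of-ratios size factors gave module ratios of 1.55 for immature against mature neutrophils and 1.65 for neutrophils against the monocyte-macrophage lineage. They gave 1 of 31 members higher for Arg1 and Mmp12 macrophages (1.003% of all genes) and 2 of 22 for mature dendritic cells (7.70%). For plasma cells 10 of 30 were higher (22.4%) and 7 lower (22.3%). In neutrophils 5 of 31 were lower (19.9%), and in immature neutrophils 0 of 25 (1.67%). Scaling without the abundant genes also gave 10 higher and 7 lower for plasma cells (23.5% and 20.8% of all genes), and median module levels of 16.6 in B cells, 43.9 in C1q-positive macrophages, 28.6 in CD8 T cells, 58.8 in co-positive cells, 58.0 in Ly6c2-positive monocytes, 25.7 in NK cells and ILC1, 30.5 in NK cells and ILCs, 32.8 in dendritic cells, 15.5 in follicular-like B cells, 67.1 in immature neutrophils, 54.1 in the monocyte-macrophage lineage, 62.4 in neutrophils and 54.2 in regulatory T cells.

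With cells of 2 lineages given to a class, median module levels were 20.6 in B cells, 31.6 in dendritic cells, 17.2 in follicular-like B cells, 45.0 in immature neutrophils and 44.3 in neutrophils. The module ratios were then 1.44 for Arg1 and Mmp12 macrophages, 0.929 for mature dendritic cells, 1.09 for immature neutrophils and 0.704 for plasma cells. Members called were 1 of 31 higher for Arg1 and Mmp12 macrophages (1.07% of all genes). For mature dendritic cells 2 of 29 were higher (3.31%) and 0 lower (1.71%). For immature neutrophils 0 of 30 were called in either direction (0.348% and 0.517%). For neutrophils 3 of 32 were lower (7.44%). For plasma cells 0 of 27 were higher (5.49%) and 9 lower, for which no share is given here. Ankrd37 (ratio 1.41) and Pfkm (0.993) in plasma cells changed direction there, and Slc16a1 (1.004) did so without the abundant genes.

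Glycolysis members alone gave ratios of 0.749 for mature dendritic cells and 0.885 for plasma cells. Hypoxia members alone gave 1.32 for Arg1 and Mmp12 macrophages, 1.003 for immature neutrophils, 0.858 for neutrophils and 0.388 for plasma cells. Without Gapdh the plasma cell ratio was 0.680.

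A 1.5-fold call gave 10 of 31 higher for Arg1 and Mmp12 macrophages (3.64% of all genes), 2 of 22 higher and 10 lower for mature dendritic cells (12.5% and 18.0%), 4 of 30 higher and 2 lower for Ly6c2-positive monocytes (4.46% and 12.5%), 3 of 25 higher and 5 lower for immature neutrophils (2.69% and 10.8%) and 5 of 30 higher for plasma cells (14.7%). With 1 more class marker, 1 of 31 was higher for Arg1 and Mmp12 macrophages (0.968% of all genes). For mature dendritic cells 4 of 26 were higher and 10 lower (15.1% and 15.4%). Called lower were 1 of 22 for effector-like CD4 T cells (1.004%) and 0 of 25 for immature neutrophils (2.88%). Cells with at least 500 genes and under 10% mitochondrial UMIs gave 1 of 31 higher for Arg1 and Mmp12 macrophages (1.02% of all genes). For mature dendritic cells they gave 2 of 26 higher and 10 lower (13.6% and 14.8%). Leaving out cells above 2 times the class median gave 3 of 26 higher and 10 lower for mature dendritic cells (14.01% and 14.8%). A mean over cells gave 1 of 31 higher and 1 lower for Arg1 and Mmp12 macrophages (1.21% and 2.58% of all genes). Thinning to 1000 UMIs gave 1 of 24 higher and 1 lower there (1.19% and 1.72%). Thinning also gave 0 of 24 lower for Ly6c2-positive monocytes (3.18% of all genes) and 0 of 21 in either direction for immature neutrophils (1.24% and 2.41%). In neutrophils 5 of 27 were then lower (31.1%), and in plasma cells 7, for which no share is given here. Without a minimum of UMIs, 2 of 30 were higher for mature dendritic cells (5.53% of all genes) and 2 of 32 for Ly6c2-positive monocytes (1.78%). Asking for 10 expected UMIs in each class gave 0 of 25 lower for Ly6c2-positive monocytes (5.08% of all genes) and 0 of 17 lower for immature neutrophils (1.79%). It gave 1 higher for plasma cells, for which no share is given here.

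With each sample left out in turn, 5 to 7 members were higher (7 without sample 3, 5 without sample 4) and 0 to 3 lower (3 without sample 4) for Arg1 and Mmp12 macrophages. There the same settings called 3.87% to 6.87% of all genes higher and 7.28% to 8.52% lower. For mature dendritic cells 2 were higher and 10 lower without sample 1 (13.8% and 14.7% of all genes), and likewise without sample 3 (14.01% and 21.5%). For Ly6c2-positive monocytes 1 to 2 were higher (2 without sample 4) and 1 to 2 lower (2 without sample 2). The same settings called 2.40% to 2.53% of all genes higher and 6.61% to 8.19% lower. For immature neutrophils 1 to 3 were lower (3 without sample 2, 2 without sample 4), against 4.15% to 6.41% of all genes. For effector-like CD4 T cells 0 to 1 were lower (1 without sample 2 or without sample 4), against 0.901% to 0.977%. Module ratios were 1.49 to 1.52, 0.823 to 0.862, 1.26 to 1.36, 1.22 to 1.32 and 0.989 to 1.13 for these 5 comparisons in that order, and 1.05 to 1.11 for neutrophils against the monocyte-macrophage lineage. For Arg1 and Mmp12 macrophages and mature dendritic cells, each read in 2 samples, these are the ratios of the single samples.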

Other observations

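Cells set aside for markers of 2 lineages, which entered no class, had a module level of 26.9 to 42.1 per 10000 UMIs over the 4 samples (median 37.8). Cells that met no gate had 26.8 to 34.3 (median 32.5), with median counts of 2057 to 3070 UMIs in a cell. Small classes read in 1 sample had module levels of 33.7 for type 1 conventional dendritic cells (sample 1), 22.1 for gamma-delta T cells (sample 2) and 22.9 for mast cells and basophils (sample 2). In type 1 conventional dendritic cells Pfkp was at 465 CPM. Endothelial cells, read in samples 3 and 4, had 34.9 and 32.2 for the module, and fibroblasts 29.05 to 35.02.

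Eno2, an enolase known mainly from neurons and endocrine cells, was at 15.1, 37.2 and 27.1 CPM in Ccr7-positive mature dendritic cells (samples 1, 3 and 4) and at 17.6, 8.97, 14.1 and 18.8 CPM in fibroblasts, with overlapping ranges, and its median was 0 in Lef1-positive CD4 T cells.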
